A study of Mus musculus with 6 samples.

Results

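The NF-κB subunit and inhibitor genes Nfkb1, Nfkb2, Rel, Rela, Relb, Nfkbia, Nfkbib, Nfkbie, Nfkbiz and Tnfaip3 were followed in mouse blood-forming cells that carried a leukaemia fusion gene. They were taken from the expression table by exact gene symbol, and all 10 were found among its 21684 genes. Each had at least 1 FPKM (a level per length of gene, relative to all mapped fragments in the library) in 3 or more of the 6 libraries, so all 10 entered the test on 10901 genes. The RUNX1-RARA group comprised 3 RNA-seq libraries of primary murine haematopoietic cells from bone marrow, labelled as overexpressing the fusion. The empty vector group comprised 3 libraries of the same cell type transduced with the vector alone. RUNX1-RARA joins the blood transcription factor RUNX1 to the retinoic acid receptor RARA and belongs to variant acute promyelocytic leukaemia, and the comparison asked how its presence altered gene expression. The cells of both groups still had their own mouse Runx1 and Rara genes. The vector's promoter, the strain and age of the mice, any sorting and whether replicates came from separate animals are not stated in the labels. Each p-value therefore reflects how far these particular libraries vary, and that variation may be technical.

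NF-κB is a family of dimeric transcription factors that is held in the cytoplasm of resting cells by IκB proteins. Signals from Toll-like, interleukin-1 and TNF receptors activate the IκB kinase (IKK), which marks IκB for destruction and frees the dimers to enter the nucleus. Among the first genes switched on are those of the inhibitors, so the pathway limits its own activity. In myeloid cells NF-κB drives cytokine, chemokine and survival genes.

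The NF-κB consensus, a 10-base motif, was searched on both strands of RefSeq promoter windows (GRCm38.p6, 250 bases before to 50 after the gene start), because feedback through such sites is how several of these genes are known to be switched on. Windows were found for 7 of the 10 genes, and Nfkb1, Relb and Nfkbiz had none in the table. At least 1 match was present for 5 of the 7 genes, against 8.46% of all 32851 windows of the same length. Those 5 windows are shown 5′ to 3′ on the gene's strand, with matches to the consensus in capitals. For Nfkb2 and Tnfaip3, which had several annotated starts, the first window listed is shown. The 5 of 7 counts genes, some with several windows, while the 8.46% counts windows. The printed windows were 56.7% to 75.0% G or C, against a median of 52.7% over all windows. The match counts were not adjusted for this.
Nfkbia, chr12:55492598-55492897, minus strand: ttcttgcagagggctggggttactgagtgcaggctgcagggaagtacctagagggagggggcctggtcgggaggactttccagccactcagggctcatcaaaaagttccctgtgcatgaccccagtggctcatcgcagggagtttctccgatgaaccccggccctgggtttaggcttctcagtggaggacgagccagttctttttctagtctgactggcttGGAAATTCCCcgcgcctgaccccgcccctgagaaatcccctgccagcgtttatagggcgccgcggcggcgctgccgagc
Nfkb2, chr19:46304487-46304786, plus strand: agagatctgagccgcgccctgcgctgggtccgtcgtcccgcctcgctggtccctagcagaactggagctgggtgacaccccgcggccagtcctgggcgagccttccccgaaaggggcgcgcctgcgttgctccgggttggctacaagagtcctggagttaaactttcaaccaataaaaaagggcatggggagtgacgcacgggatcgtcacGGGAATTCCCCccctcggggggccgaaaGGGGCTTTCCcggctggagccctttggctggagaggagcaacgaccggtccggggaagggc
Rel, chr11:23770920-23771219, minus strand: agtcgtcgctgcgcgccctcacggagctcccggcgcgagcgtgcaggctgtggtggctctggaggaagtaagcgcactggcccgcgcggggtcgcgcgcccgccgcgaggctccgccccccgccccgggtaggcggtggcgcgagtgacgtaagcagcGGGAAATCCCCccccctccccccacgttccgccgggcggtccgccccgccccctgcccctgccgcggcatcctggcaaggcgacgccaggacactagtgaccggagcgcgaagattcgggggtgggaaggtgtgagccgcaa
Nfkbie, chr17:45555450-45555749, plus strand: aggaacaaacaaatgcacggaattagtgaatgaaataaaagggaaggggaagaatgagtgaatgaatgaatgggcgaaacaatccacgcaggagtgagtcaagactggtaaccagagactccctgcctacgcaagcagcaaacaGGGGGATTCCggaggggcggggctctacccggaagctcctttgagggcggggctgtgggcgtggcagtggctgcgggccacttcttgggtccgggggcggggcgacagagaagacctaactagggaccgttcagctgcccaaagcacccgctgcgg
Tnfaip3, chr10:19015361-19015660, minus strand: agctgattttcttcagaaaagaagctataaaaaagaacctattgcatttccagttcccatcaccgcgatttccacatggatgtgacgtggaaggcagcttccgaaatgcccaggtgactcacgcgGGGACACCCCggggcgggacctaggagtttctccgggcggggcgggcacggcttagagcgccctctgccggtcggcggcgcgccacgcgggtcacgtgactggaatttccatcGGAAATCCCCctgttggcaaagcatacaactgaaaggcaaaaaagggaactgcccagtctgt
A stricter form of the motif, GGGANTTTCC, lies within the broader consensus and was present in 0.411% of all windows. It was found for Nfkbia, on the opposite strand 20 to 29 bases before the start, and for Nfkb2, as a single site in the overlapping windows of 2 further starts. The RUNX motif TGTGGT was found once, in the Rel window 197 to 202 bases before the start, against 16.8% of all windows. The retinoid half-site AGGTCA was not in any of the members' windows and was in 16.3% of all windows. These matches describe letters in the windows. They do not show that a factor was bound, and among the 5 genes with a consensus match Nfkbia, Rel and Tnfaip3 fell, Nfkbie rose and Nfkb2 did not pass the test, as described next.

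Nfkbia, which encodes IκBα, the main inhibitor of the classical NF-κB dimers, fell more than any other member and was the only one of the 10 to change by at least 1 on the log2 scale. Nfkb1, the gene of the p105 precursor of the p50 subunit, rose, as did the inhibitor gene Nfkbie, while Rel, Relb, Tnfaip3 and, by a small margin, Rela fell. Nfkb2, Nfkbib and Nfkbiz did not pass the test. In all, 2 members were called higher and 5 lower by limma (Benjamini-Hochberg adjusted p under 0.05 over all tested genes). A call was common: 77.7% of all 10901 tested genes were called, 46.0% higher and 31.7% lower. The 7 of 10 members called is therefore near the background and is not a result about the family. In 8 of 10 members the groups did not overlap, against 79.1% of all tested genes. The median log2 fold change of the 10 was -0.16, beside 0.11 for all tested genes. A change larger in size than the median of all tested genes, 0.40, was seen in 3 members, Nfkbia, Rel and Nfkb1.

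**Figure D1:**
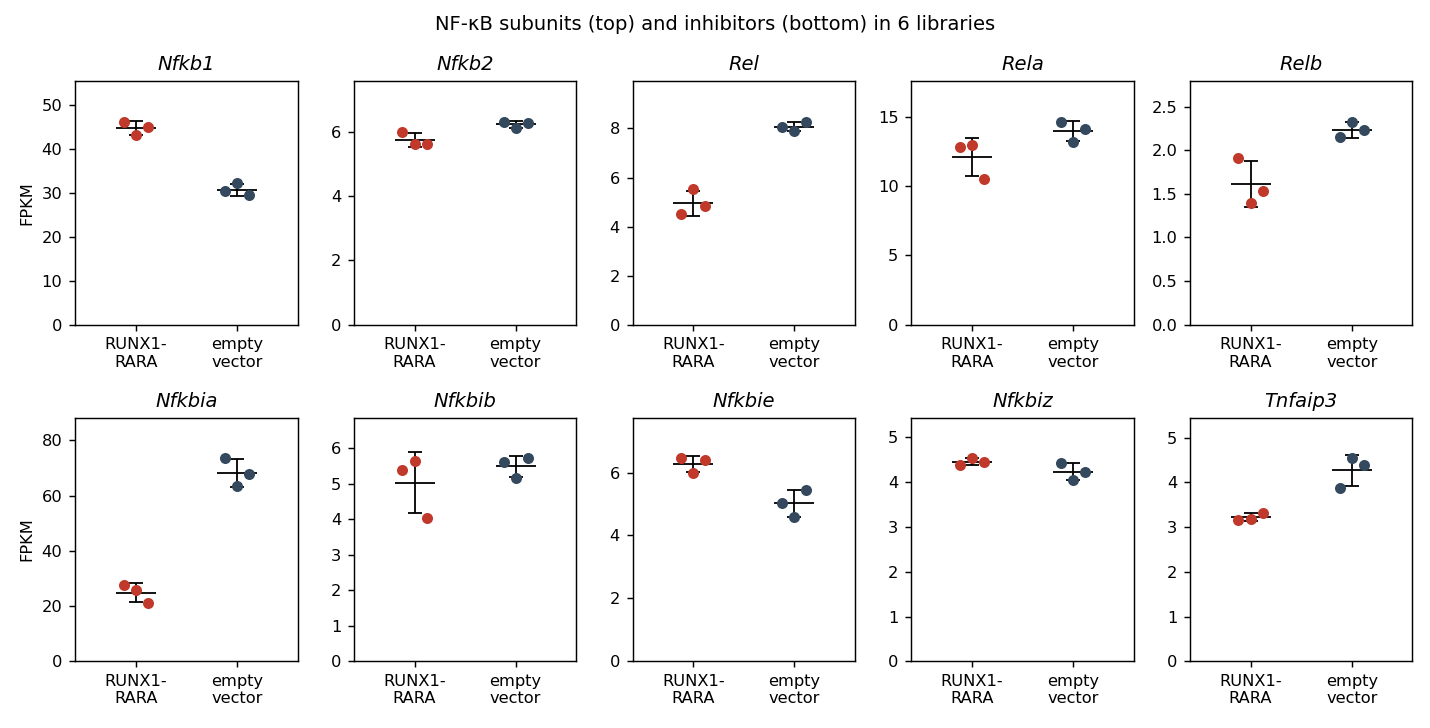
FPKM of each NF-κB gene in each library, subunits in the upper row and inhibitors in the lower row, with RUNX1-RARA libraries in red and empty vector libraries in dark blue; horizontal marks and bars are the mean ± SD of 3 libraries. Nfkbia lies between 21.1 and 27.8 FPKM in RUNX1-RARA libraries and between 63.6 and 73.5 FPKM in empty vector libraries, Nfkb1 is higher with the fusion, and the groups overlap for Nfkbib and Nfkbiz.

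The libraries separated by group, with 97.1% of the variance of tested genes on the first principal component. Estimated depths were between 26.7 and 40.7 M reads in RUNX1-RARA libraries and between 33.2 and 89.8 M reads in empty vector libraries. Among the members, the estimated reads behind a value in 1 library ran from 151 for Relb to 32823 for Nfkb1, so none rested on a handful of reads. The blood cell label was borne out by the pan-haematopoietic markers, whose summed level was 890 to 913 FPKM in RUNX1-RARA libraries and 1468 to 1525 FPKM in empty vector libraries, with all 8 called lower. Markers of mature neutrophils, all 12 of 12 called lower, summed to 2587 to 3142 FPKM in RUNX1-RARA libraries and 57595 to 64646 FPKM in empty vector libraries. Monocyte and macrophage markers, 8 of 9 tested called lower, summed to 219 to 227 FPKM in RUNX1-RARA libraries and 4466 to 4526 FPKM in empty vector libraries. Progenitor markers split, 4 higher and 3 lower of 7 tested, with sums of 2430 to 2792 FPKM in RUNX1-RARA libraries and 2391 to 2496 FPKM in empty vector libraries. T and NK cell markers, of which 1 of 8 was tested and was higher, summed to 3.83 to 4.29 FPKM in RUNX1-RARA libraries and 0.986 to 1.44 FPKM in empty vector libraries, with Ncr1 at 0 in every library. B cell markers, of which 1 of 5 in the table was tested and was lower, summed to 0.272 to 0.451 FPKM in RUNX1-RARA libraries and 2.88 to 3.25 FPKM in empty vector libraries. Of the erythroid markers, 1 of 6 was tested and it was higher, with sums of 27.7 to 32.2 FPKM in RUNX1-RARA libraries and 1.97 to 2.96 FPKM in empty vector libraries. Of the stromal and endothelial markers, Cxcl12 was at 0 in every library, and Pecam1, which blood cells also express, was the 1 tested, with list sums of 91.8 to 93.4 FPKM in RUNX1-RARA libraries and 34.3 to 35.6 FPKM in empty vector libraries. Mmp9, Retnlg, Mrc1, Msr1, Fcgr1 and Cd79b were under 1 FPKM in all fusion libraries and entered the test only through the vector libraries. Lck entered only through the fusion libraries, so the filter on low values fixed the direction of all these calls. In bulk RNA, fewer cells of a type and less RNA per cell cannot be told apart. The part of these marker shifts in the NF-κB results was not tested.

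FPKM are shares of a library's total, and that total was made up differently in the groups. The 13 mitochondrially encoded genes took between 21.9% and 26.3% of the summed FPKM in RUNX1-RARA libraries and between 7.96% and 10.6% in empty vector libraries. The 12 mature neutrophil markers went the other way. They summed to 2587 to 3142 FPKM in RUNX1-RARA libraries and 57595 to 64646 FPKM in empty vector libraries, of library sums of 409081 to 428005 FPKM. Rescaling without the mitochondrially encoded genes takes out only the first of these differences, so it is one-sided. Scaling moved the median log2 fold change over the tested genes: it was 0.11 as deposited, 0.01 after TMM scaling and 0.35 after rescaling to equal sums without the mitochondrially encoded genes. Of all called genes, 59.2% were higher as deposited and 74.4% after that rescaling. Nfkb1, Nfkbia, Rel and Nfkbie kept their direction and call in all 14 alternative settings, and the other members did not, as given for each.

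**Figure D2:**
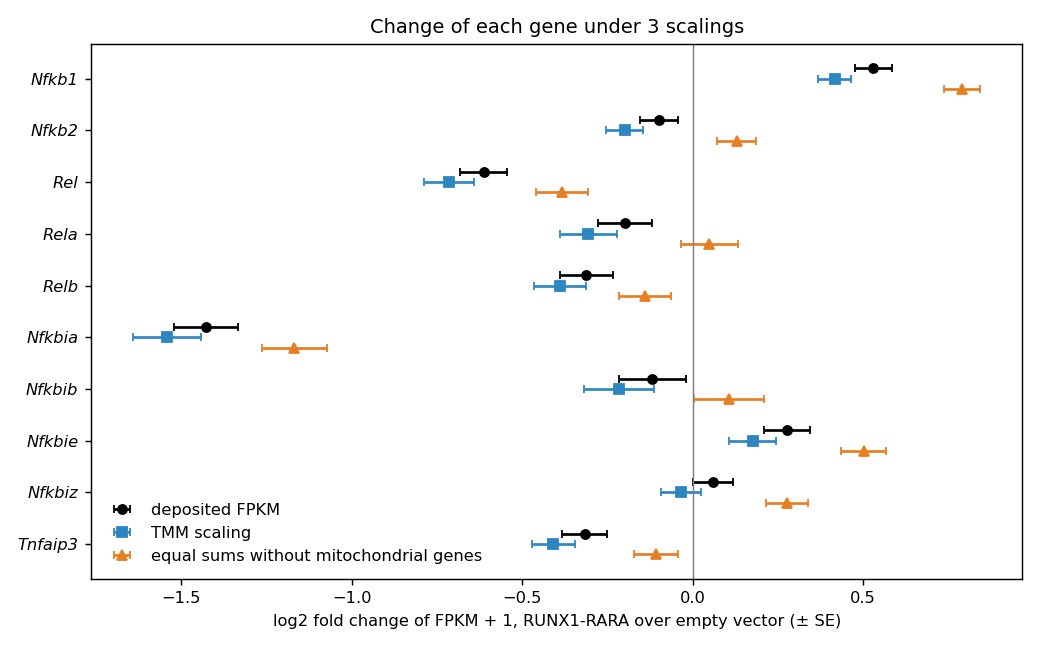
Log2 fold change of FPKM + 1 (horizontal axis, RUNX1-RARA over empty vector, bars are the SE of the limma fit) for each NF-κB gene under 3 scalings. Nfkbia, Rel, Nfkb1, Nfkbie, Relb and Tnfaip3 stay on the same side of 0 under all 3. Rela, Nfkb2 and Nfkbib cross 0 after rescaling without mitochondrially encoded genes, and Nfkbiz after TMM scaling.

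Nfkb1 (ENSMUSG00000028163, chromosome 3, 135584655 to 135691547, GRCm38) was the most abundant subunit gene. Its levels were 46.1, 43.0 and 44.9 FPKM in RUNX1-RARA libraries, against 30.3, 32.2 and 29.4 FPKM in empty vector libraries. Every RUNX1-RARA library lay above every empty vector library. The mean was 44.7 ± 1.58 FPKM with the fusion and 30.6 ± 1.39 FPKM with the vector (SD, n = 3 each), 1.46-fold higher, with a log2 fold change of 0.53 (adjusted p = 8.70e-06 in limma, SE 0.0554). This gene is read as p105, which can itself hold other subunits back as an IκB-like protein or be processed to p50, a subunit that binds DNA but has no activation domain of its own.

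Rel (ENSMUSG00000020275, chromosome 11, 23736847 to 23770970) encodes c-Rel, a subunit with an activation domain that is used mainly in blood cells. It stood at 4.52, 5.51 and 4.82 FPKM in RUNX1-RARA libraries, against 8.06, 7.90 and 8.28 FPKM in empty vector libraries. The groups were well separated, with the highest RUNX1-RARA library under the lowest vector library. The means were 4.95 ± 0.51 FPKM with the fusion and 8.08 ± 0.189 FPKM with the vector (SD, n = 3 each), 1.63-fold lower (log2 fold change -0.61, adjusted p = 1.68e-05 in limma, SE 0.0697).

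Rela, which encodes p65, the activating partner of p50 in the commonest dimer, differed little. It stood at 12.8, 12.9 and 10.5 FPKM in RUNX1-RARA libraries, against 14.7, 13.2 and 14.1 FPKM in empty vector libraries. The gap between the groups was narrower than the range within either, and RUNX1-RARA replicate 3 lay apart from its group on the low side. The log2 fold change was -0.20 (adjusted p = 0.042 in limma, SE 0.0795), and the call was lost without RUNX1-RARA replicate 3 (-0.11, adjusted p = 0.12), without empty vector replicate 1 (-0.17, adjusted p = 0.121) or without empty vector replicate 3 (-0.19, adjusted p = 0.0978). It was also lost with no filter on low values (adjusted p = 0.0833) and after quantile normalization (adjusted p = 0.0518). The sign turned after rescaling without mitochondrially encoded genes (0.050, adjusted p = 0.587), and over all settings the adjusted p ran from 0.00752 to 0.587.

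Relb and Nfkb2 serve the non-canonical pathway, in which a p100 precursor is processed to p52 and paired with RelB, and their differences between the groups were small. Relb had 1.91, 1.39 and 1.54 FPKM in RUNX1-RARA libraries, against 2.15, 2.33 and 2.23 FPKM in empty vector libraries. All 3 fusion libraries were under the vector libraries, and the log2 fold change was -0.31 (adjusted p = 0.00413 in limma, SE 0.0783). That call was lost after rescaling without mitochondrially encoded genes (-0.14, adjusted p = 0.113). Nfkb2, the gene of p100, had 6.003, 5.625 and 5.634 FPKM in RUNX1-RARA libraries, against 6.315, 6.115 and 6.26 FPKM in empty vector libraries. These groups did not overlap but were close, and the log2 fold change of -0.10 (adjusted p = 0.129 in limma, SE 0.0556) did not pass. It passed as lower after TMM scaling (-0.20, adjusted p = 0.00783) and quantile normalization (-0.13, adjusted p = 0.0407), and its sign turned after rescaling without mitochondrially encoded genes (0.13, adjusted p = 0.0523). On the opposite strand Nfkb2 shares 531 exon bases with the noncoding gene AC114539.1, which is not among the genes with values. It shares 299 with Psd, at 0.64 FPKM in RUNX1-RARA libraries and 0.874 FPKM in empty vector libraries. No strand setting is given, so reads of such pairs cannot be told apart.

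Shares within a library do not depend on how libraries are scaled to each other, and they showed the same shift in the make-up of the subunit messages. Nfkb1 took 64.6%, 62.8% and 66.6% of the summed FPKM of the 5 subunit genes in RUNX1-RARA libraries, against 49.3%, 52.1% and 48.8% in empty vector libraries. The share of Rel was 7.18% ± 0.859 with the fusion and 13.2% ± 0.468 with the vector (SD, n = 3 each). Shares of Rela were 17.5% ± 1.69 with the fusion and 22.9% ± 1.31 with the vector. Those of Nfkb2 and Relb were also lower, without overlap between the groups. The shares add up to the whole, so a higher share of Nfkb1 lowers the others, and these falls are not separate results. The ratio of Nfkb1 to Rel was 9.11 ± 1.22 with the fusion and 3.79 ± 0.259 with the vector. The sum over the 5 genes was 69.1 ± 2.04 FPKM in RUNX1-RARA libraries and 61.2 ± 0.743 FPKM in empty vector libraries.

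Nfkbia (ENSMUSG00000021025, chromosome 12, 55489410 to 55492647) had 27.8, 25.8 and 21.1 FPKM in RUNX1-RARA libraries, against 73.5, 63.6 and 67.9 FPKM in empty vector libraries. Every vector library lay far above every fusion library, and RUNX1-RARA replicate 3 was the lowest of all. The means were 24.9 ± 3.47 FPKM with the fusion and 68.3 ± 4.99 FPKM with the vector (SD, n = 3 each), 2.75-fold lower, with a log2 fold change of -1.43 (adjusted p = 2.61e-07 in limma, SE 0.095). A larger change in either direction was seen in 8.35% of tested genes. Nfkbia is a feedback target that NF-κB itself switches on, and its printed promoter window carries the strict motif just before the start.

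Of the other classical IκB genes, Nfkbie rose and Nfkbib did not pass the test. Nfkbie (IκBε), a slower-acting feedback inhibitor, had 6.45, 5.99 and 6.38 FPKM in RUNX1-RARA libraries, against 5.02, 4.58 and 5.44 FPKM in empty vector libraries. All fusion libraries were above all vector libraries, and the log2 fold change was 0.28 (adjusted p = 0.00355 in limma, SE 0.0675). Nfkbib (IκBβ), which is not a strong feedback target, had 5.39, 5.65 and 4.05 FPKM in RUNX1-RARA libraries, against 5.61, 5.17 and 5.72 FPKM in empty vector libraries. These groups overlapped, RUNX1-RARA replicate 3 was again the lowest, and the log2 fold change of -0.12 (adjusted p = 0.293 in limma, SE 0.0981) did not pass. Without that library it was 0.0055 (adjusted p = 0.941), and it was 0.11 (adjusted p = 0.345) after rescaling without mitochondrially encoded genes. On the opposite strand Nfkbib shares 314 exon bases with Ccer2, at 0.086 FPKM in RUNX1-RARA libraries and 0.136 FPKM in empty vector libraries. It shares 42 exon bases with Sirt2, at 16.1 FPKM in RUNX1-RARA libraries and 24.0 FPKM in empty vector libraries.

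Nfkbiz (IκBζ) differs from these inhibitors in acting in the nucleus, where it helps to switch on secondary response genes. It had 4.38, 4.53 and 4.45 FPKM in RUNX1-RARA libraries, against 4.42, 4.04 and 4.24 FPKM in empty vector libraries. The groups overlapped, and the log2 fold change of 0.06 (adjusted p = 0.359 in limma, SE 0.0576) did not pass. Its sign turned after TMM scaling (-0.035, adjusted p = 0.603), and it passed as higher after rescaling without mitochondrially encoded genes (0.28, adjusted p = 0.00154). Tnfaip3 encodes A20, a ubiquitin-editing enzyme that shuts off signalling upstream of IKK. It had 3.17, 3.18 and 3.33 FPKM in RUNX1-RARA libraries, against 3.88, 4.54 and 4.38 FPKM in empty vector libraries. All fusion libraries were under all vector libraries, with a log2 fold change of -0.32 (adjusted p = 0.00124 in limma, SE 0.0654), and this call too was lost after rescaling without mitochondrially encoded genes (-0.11, adjusted p = 0.145).

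Set against the subunits in the same library, the sum of the classical IκB messages was lower. Of the 3 genes in it only Nfkbia was called lower, and Nfkb1, which was higher, counts wholly in the subunit sum. The summed FPKM of Nfkbia, Nfkbib and Nfkbie over that of the 5 subunit genes was 0.556, 0.546 and 0.467 in RUNX1-RARA libraries, against 1.37, 1.19 and 1.31 in empty vector libraries. The groups were far apart, with means of 0.523 ± 0.0488 for the fusion and 1.29 ± 0.0919 for the vector (SD, n = 3 each). Within the 3 inhibitor genes, Nfkbia made up 68.6% ± 1.66 of their sum with the fusion and 86.6% ± 0.75 with the vector. The ratio of Nfkbia to Rela was 2.05 ± 0.105 with the fusion and 4.89 ± 0.114 with the vector. These are ratios of messages and not of proteins, whose amounts were not measured.

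**Figure D3:**
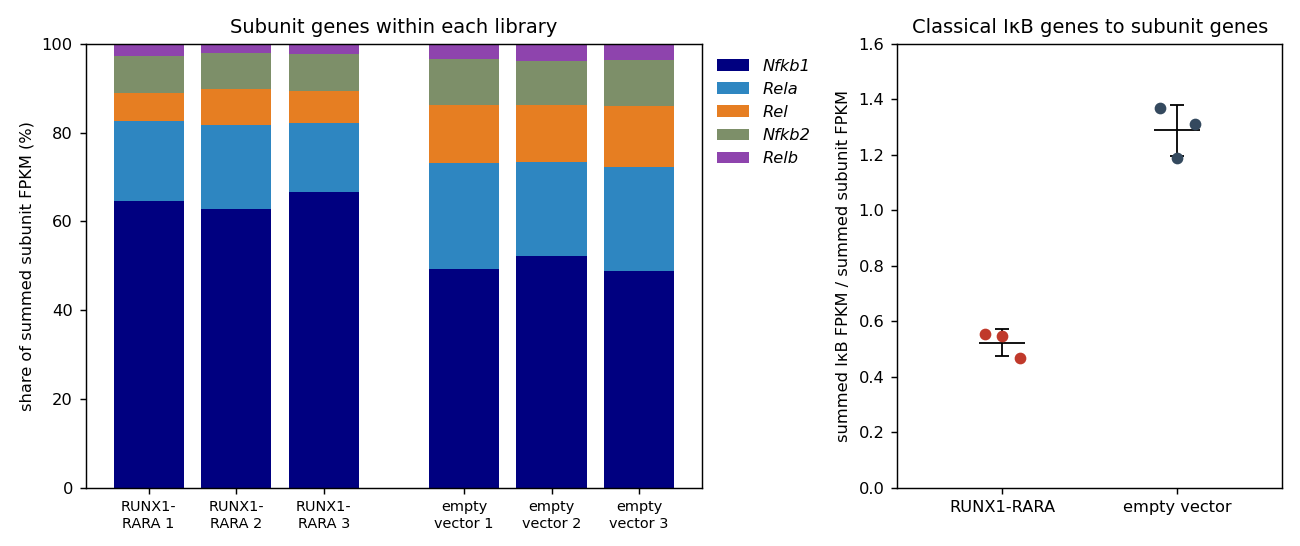
Left, share of each subunit gene in the summed FPKM of the 5 subunit genes, as percent, in each library; right, summed FPKM of Nfkbia, Nfkbib and Nfkbie divided by that of the subunit genes, with the mean ± SD of 3 libraries. Nfkb1 takes 62.8% to 66.6% in RUNX1-RARA libraries and 48.8% to 52.1% in empty vector libraries, and the inhibitor ratio is 0.467 to 0.556 in RUNX1-RARA libraries and 1.19 to 1.37 in empty vector libraries.

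The order of levels differed between the groups. In RUNX1-RARA libraries Nfkb1 stood first, followed by Nfkbia and Rela, then by Nfkbie, Nfkb2, Nfkbib, Rel and Nfkbiz, whose neighbours overlapped, and last by Tnfaip3 and Relb. In empty vector libraries Nfkbia stood first, followed by Nfkb1, Rela, Rel, Nfkb2, Nfkbib, Nfkbie, Tnfaip3, Nfkbiz and Relb. There only the neighbours Nfkbib and Nfkbie, and Tnfaip3 and Nfkbiz, overlapped. Rel thus stood at place 7 of the 10 in fusion libraries and at place 4 in vector libraries.

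The 4 named genes whose centred log2(FPKM + 1) profile over the 6 libraries lay nearest to that of Nfkbia, by Euclidean distance, were Ppard, Pglyrp1, Hmgn2-ps and Arrb2, at distances of 0.14, 0.18, 0.189 and 0.191. Pglyrp1, a peptidoglycan recognition protein of neutrophil granules, averaged 58.8 ± 4.09 FPKM with the fusion and 161 ± 6.45 FPKM with the vector (SD, n = 3 each). Arrb2, the gene of the signalling adaptor β-arrestin-2, averaged 72.0 ± 5.11 FPKM with the fusion and 182 ± 10.1 FPKM with the vector. Ppard, a nuclear receptor gene, averaged 1.54 ± 0.423 FPKM with the fusion and 5.58 ± 0.638 FPKM with the vector. Hmgn2-ps is a pseudogene, so its level is uncertain where reads were shared with its parent gene. The log2 fold changes of these 4 genes ran from -1.44 to -1.33, near the -1.43 of Nfkbia. With libraries so distinct by group, such profiles mostly hold that difference, and shared regulation was not tested.

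Genes around the 10 in the pathway were counted in lists, and each count is read against the 46.0% of tested genes called higher and the 31.7% called lower. In the receptors, 8 of 10 tested were called lower and 1 higher, with a median log2 fold change of -0.91. Tlr2, a receptor for bacterial lipoproteins, was at 2.36, 2.72 and 2.45 FPKM in RUNX1-RARA libraries, against 46.4, 50.8 and 45.7 FPKM in empty vector libraries, a log2 fold change of -3.79 (adjusted p = 7.65e-12 in limma, SE 0.064). Tlr4 and its co-receptor Cd14 fell 3.77-fold and 3.05-fold. Cd14 is also among the monocyte and macrophage markers counted above, and the part of the marker falls in the receptor counts was not tested. The 1 receptor gene that rose was Il1r1, the signalling receptor for interleukin-1, at 8.54 ± 0.24 FPKM with the fusion and 2.36 ± 0.125 FPKM with the vector (SD, n = 3 each), 3.62-fold higher.

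Downstream of the receptors, the IKK complex with its adaptors, kinases and ubiquitin ligases moved both ways. Of 22 tested genes, 5 were called higher and 11 lower, with a median log2 fold change of -0.09. After rescaling without mitochondrially encoded genes, which raises fusion values relative to vector values throughout, 11 were higher and 6 lower. The shares of all tested genes became 63.2% higher and 21.7% lower. Of the genes named by size of change, Irak2, a kinase of the Toll-like and interleukin-1 receptors, fell to 2.73 ± 0.262 FPKM with the fusion against 7.595 ± 0.208 FPKM with the vector (SD, n = 3 each). The related kinase gene Irak4 fell 2.05-fold, and Myd88, the adaptor that recruits these kinases, 1.85-fold. Rbck1, the HOIL-1 subunit of the linear ubiquitin ligase, rose 1.84-fold to 24.0 ± 2.97 FPKM with the fusion against 13.1 ± 0.493 FPKM with the vector (SD, n = 3 each). The genes of the kinases of IKK itself, Chuk (IKKα) and Ikbkb (IKKβ), named after their values were seen, did not pass, with log2 fold changes of 0.03 (SE 0.0785) and 0.07 (SE 0.0629). Ikbkg (NEMO), of the same complex and also named after its value was seen, was called lower. Its log2 fold change was -0.40 (adjusted p = 4.25e-05 in limma, SE 0.0511).

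Regulators of the non-canonical arm also split, 2 higher and 3 lower of 6 tested (median log2 fold change -0.08). The lists share genes: Traf2 and Chuk are also counted in the IKK list and Birc3 among the target genes, so these counts are not separate. The ubiquitin ligase gene Birc2 (cIAP1) rose 1.63-fold and its relative Birc3 (cIAP2) fell 1.92-fold. Birc3 was at 7.97, 8.41 and 8.57 FPKM in RUNX1-RARA libraries, against 15.2, 17.1 and 15.7 FPKM in empty vector libraries. Traf3, which with Traf2 keeps the non-canonical kinase NIK low, fell 1.40-fold, while Traf2 rose 1.40-fold.

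Bcl3, an atypical IκB protein that works with p50 and p52 homodimers in the nucleus, belongs to the list of other IκB proteins and nuclear regulators. It was at 0.687, 0.567 and 0.375 FPKM in RUNX1-RARA libraries, against 6.65, 6.17 and 6.05 FPKM in empty vector libraries. The groups were far apart, 11.6-fold in mean FPKM. Because all fusion libraries were under 1 FPKM, Bcl3 passed the filter on low values only through the vector libraries where it was high, and it was not tested in 4 of the 14 alternative settings. Of the 8 tested genes of that list, 2 were called higher and 4 lower (median log2 fold change -0.22), with Bcl3 among the 4. Nfkbid (IκBNS), another nuclear IκB, fell 1.52-fold, and Pdlim2, a ligase that ends the activity of nuclear p65, fell by 0.48 on the log2 scale. The gene of the repressing factor Nkrf rose 1.66-fold.

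Among partners of A20 and other feedback genes, 8 of 13 were called lower and 2 higher (median log2 fold change -0.35). After rescaling without mitochondrially encoded genes 5 were lower and 3 higher, to be read against the 21.7% lower and 63.2% higher of all tested genes in that setting. Tnip3, an A20-binding protein, was at 0.537 ± 0.0658 FPKM with the fusion and 2.41 ± 0.073 FPKM with the vector (SD, n = 3 each). It too passed the filter only through the vector libraries and was not tested in 4 of the 14 alternative settings. N4bp1, the gene of the Toll receptor adaptor Tollip and the ubiquitin ligase gene Itch fell 1.74-fold, 1.59-fold and 1.56-fold.

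Of 27 tested NF-κB target genes of myeloid cells, 20 were called lower and 3 higher, with a median log2 fold change of -0.52. Il1b, the interleukin-1 beta gene, was at 2.81, 2.61 and 2.29 FPKM in RUNX1-RARA libraries, against 28.4, 28.9 and 28.2 FPKM in empty vector libraries. Of the chemokine genes, Ccl3 and Ccl4 were lower, Ccl3 at 13.0 ± 1.08 FPKM with the fusion and 109 ± 8.2 FPKM with the vector, and Ccl4 at 3.07 ± 0.575 FPKM with the fusion and 17.6 ± 1.34 FPKM with the vector (SD, n = 3 each). Bcl2a1b, a survival gene of the BCL2 family whose reads may not be told from those of its near-identical copies, fell 5.93-fold. Not all targets were lower: Tnf, named after its value was seen, was at 27.7 ± 3.1 FPKM with the fusion and 28.4 ± 1.91 FPKM with the vector and did not pass (log2 fold change -0.04, SE 0.0831). Bcl2l1 (BCL-XL), also named after its value was seen, rose 1.70-fold. Sqstm1, named in the same way, was called higher (log2 fold change 0.22), and that call was lost after TMM scaling (0.10, adjusted p = 0.0892 in limma). The chemokine gene Ccl5, also named after its value was seen, was at 1.55 ± 0.331 FPKM with the fusion and 0.23 ± 0.0954 FPKM with the vector (SD, n = 3 each) and was called higher. It passed the filter only through the fusion libraries, and 2 of the 27 targets, Vcam1 and Traf1, passed only through the vector libraries. Many of these targets are also genes of mature myeloid cells, whose markers fell in the same libraries, and the part of that fall in the target counts was not tested.

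**Figure D4:**
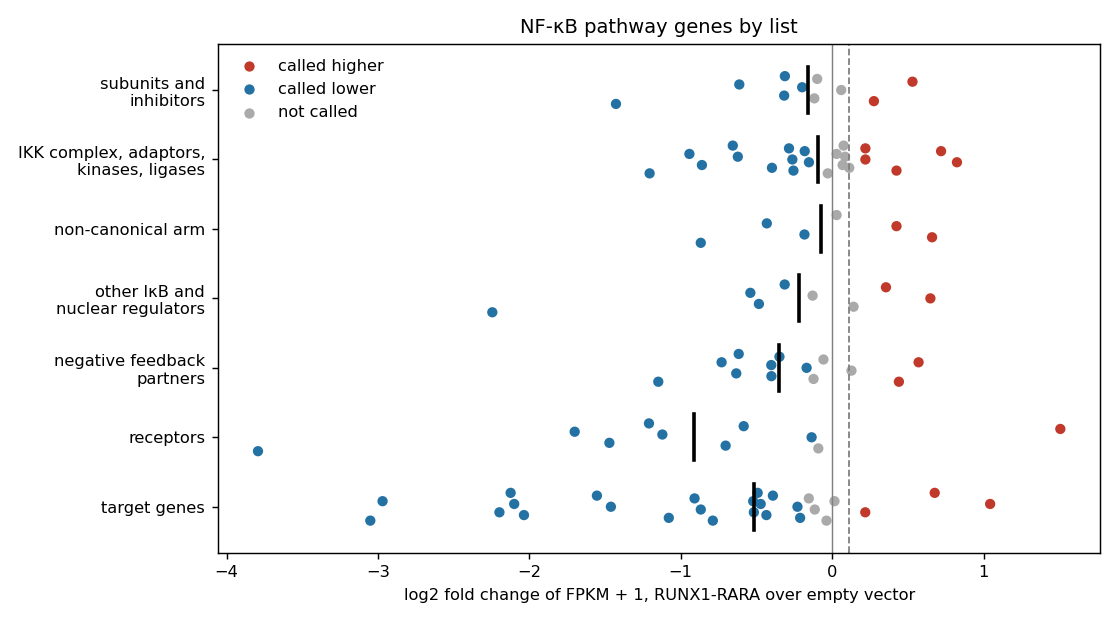
Log2 fold change of FPKM + 1 (horizontal axis, RUNX1-RARA over empty vector) of every tested gene of each list, 1 point per gene, with the list's median as a black bar and the median of all tested genes, 0.11, as a dashed line; vertical scatter within a list has no meaning. Red points were called higher and blue points lower by limma, and the receptor and target lists reach farthest to the left, with Tlr2 at -3.79 and Il1b at -3.05.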

How the data were processed

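Libraries were grouped by the genotype label, and table columns were matched to samples through the column names that the labels quote. The deposited values were FPKM, computed by the authors for each of the 6 libraries and rounded to 3 decimals, per the file headers. The submitters' processing notes list DESeq2 1.32.0, featureCounts 2.0.1, HISAT2 2.2.1 and fastp 0.22.0, and the mouse build mm10 beside hg38, but not what each did. Annotation, strand setting and handling of shared reads are not stated there. All value columns were used, and 0 pairs of libraries held identical values.

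FPKM carry no counts, and because they are shares of a library, abundant genes can shift all others. Relative depth was read from the step size of low FPKM times exon length (GENCODE M21, GRCm38). Multiples of the best-fitting step were tried. The largest was kept that left at least 80% of low values within 0.1 of a whole read number. With it, 81.8% to 86.0% of low values fell within that margin, where 80% was the floor set by this rule. Such a share was too low to rebuild reads, so no count test was run. Even numbers were 66.6% to 71.0% of them, so mates may have been counted singly and the absolute depths are not firm. In a gene of 1 kb, 1 read was worth 0.0111 to 0.0375 FPKM.

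The test was limma 3.58.1 (R 4.3.3) with a group term and trended moderation on log2(FPKM + 1). It covered 10901 genes, those reaching 1 FPKM in 3 or more of the 6 libraries, and a call is a Benjamini-Hochberg adjusted p below 0.05. A log2 fold change on this scale is smaller than the true one for low genes, and every fold given as such is the quotient of 2 group means. Alternatives were another pseudocount, other filters on low values, 3 other scalings, an untrended fit, a replicate block and each library left out. TMM factors were computed on FPKM, trimming 0.3 of the log ratios and 0.05 of the mean levels on each side. The 10 genes and the lists were chosen with earlier results of these data known. Named genes were the 10 members, up to 4 called genes without overlap and with the largest change in each of 6 pathway lists, and the 4 nearest profiles to the most changed member. Promoter sequences are from RefSeq on GRCm38.p6.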

Additional observations from a re-analysis of the deposited data

How the results depend on the processing

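Under 14 alternative settings, 504 of 519 log2 fold changes of the named genes kept their direction and call. All that did not were of members: 5 turned sign, 7 lost the call and 3 gained one. The other named genes were picked from these data for large called changes or for closeness to Nfkbia. Their stability was therefore largely fixed beforehand and says little about the members. Nfkb1, Rel, Nfkbia and Nfkbie kept their direction and call in all 14. The sign turned for 4 members: Nfkb2 (0.13), Rela (0.050) and Nfkbib (0.11) after rescaling to equal sums without mitochondrially encoded genes, Nfkbib without RUNX1-RARA replicate 3 (0.0055, the top of its range of -0.19 to 0.0055 when 1 library was left out), and Nfkbiz after TMM scaling (-0.035). That rescaling gave 2 members called lower and 3 higher, 11 IKK list genes higher and 6 lower, 5 feedback partners lower, 2 receptors higher and 6 target genes higher, with 63.2% of all tested genes higher and 21.7% lower. TMM scaling gave 3 IKK list genes higher. With a mean of at least 5 FPKM required, 3 members and 2 nuclear regulators were called lower, because fewer genes were tested. Leaving out 1 library gave 4371 to 4831 genes called higher and 2756 to 3485 lower, with 2 members higher and 4 to 5 lower in each case, and left every list count within 1.5 times its value. The correlations of same-numbered deviations were 0.0219, -0.375 and -0.0647, and those of differently numbered ones ran from -0.307 to 0.396. With 3 libraries per group, these cannot show whether the replicate numbers paired the libraries. A fit with the replicate block called 4856 genes higher and 3374 lower, among them 2 members higher and 5 lower. Depth limits low genes most: Relb rested on an estimated 151 reads in its lowest library.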
